A study of Mus musculus with 4 samples.

Results

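Spp1 and Cd44, the genes of the secreted protein osteopontin and of a cell-surface receptor that binds it, were followed in single cells of mouse liver labelled as biliary epithelial cells (BECs, the lining of the bile ducts). These 2 genes of the 50766 in the gene table were taken by name, and both had counts in each of the 4 libraries. All libraries carry the genotype Sox9EGFP, by its name a green fluorescent reporter of Sox9, a transcription factor of biliary cells. Of the libraries, 2 are labelled sham, taken 7 days after a sham operation, and 2 are labelled BDL, taken 7 days after bile duct ligation, which ties off the duct and blocks the flow of bile. Age, sex, strain background, any sorting gate and whether a library pools animals are not stated in the sources used here, so p-values measure only the spread between these libraries. The question put to the data was how level and cell-to-cell spread of the ligand and of the receptor differed between the labels, in BECs and in the other cells present.

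Osteopontin is a phosphorylated glycoprotein of the extracellular matrix and of body fluids, and in the normal liver it is made mainly by the bile duct epithelium. It binds integrins through an RGD motif, and thrombin and matrix metalloproteinases cut it. CD44 is a membrane glycoprotein best known as a receptor of the polysaccharide hyaluronan. It also binds osteopontin, is tied to the actin cytoskeleton by ezrin, radixin and moesin, and is shed from the surface by proteases.

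The promoters of the genes are shown first as the regulatory sequence upstream of both genes. Both genes matched the RefSeq table of start sites, which lies on GRCm38.p6, an older build than the one named for the deposited counts. Given are the 250 bases before the start of Spp1 (chr5:104434861-104435110, plus strand, the first of 2 start sites in the table) and of Cd44 (chr2:102901666-102901915, minus strand), each before the start site that the table lists, 5′ to 3′. The Cd44 window takes in the outermost 4 bases of the annotated gene, which on this strand begins at 102901669. Capitals mark matches, searched on either strand, to the core promoter motif TATAAA, to CCAAT as bound by the factor NF-Y, to the AP-1 motif TGANTCA and to the Sp1-type motif GGGCGG.
Spp1: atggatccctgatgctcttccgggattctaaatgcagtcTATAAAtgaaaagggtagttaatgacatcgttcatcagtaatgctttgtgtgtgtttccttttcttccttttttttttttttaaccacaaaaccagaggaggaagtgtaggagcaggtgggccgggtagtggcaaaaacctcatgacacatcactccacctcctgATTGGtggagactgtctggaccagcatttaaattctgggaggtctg
Cd44: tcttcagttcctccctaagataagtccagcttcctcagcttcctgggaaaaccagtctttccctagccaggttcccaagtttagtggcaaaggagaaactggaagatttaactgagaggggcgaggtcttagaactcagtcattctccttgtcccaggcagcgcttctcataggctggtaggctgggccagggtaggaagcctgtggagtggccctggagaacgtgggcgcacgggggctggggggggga
The Spp1 window had 2 matches, TATAAA beginning at base -211 and, on the reverse strand, CCAAT whose printed letters begin at base -46 from the start. Matches are by letters alone, and whether the TATAAA at base -211 acts in the core promoter was not tested. The Cd44 window had 0 matches. Among all 32851 promoters of the table, the same 250 bases held TATAAA in 12.4% of cases, the NF-Y motif in 33.8%, the AP-1 motif in 6.75% and the Sp1-type motif in 32.7%. The Spp1 window was 43.6% G or C and the Cd44 window 56.4%.

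Each library held 2089 to 4065 cells, with a median of 3260 and 2610 UMIs (unique molecular identifiers, here transcripts counted) per cell under the sham label and 7058 and 7793 under the BDL label. In 2 libraries the deposited table of cells names the opposite group to the label: sham replicate 2 appears there as BDL and BDL replicate 2 as sham. The labels were followed. Class levels of Spp1 and Cd44 are also given between the other 2 libraries, and the remaining tests were repeated with each library left out in turn but not with both left out. Cells were clustered with Spp1 and Cd44 left out of the clustering genes, and 5 classes were named from marker lists. BEC-like cells numbered 2625 and 2596 in sham, against 1972 and 3836 in BDL. Their 11 biliary markers were all detected in every library and summed to 6384 to 6825 CPM (a gene's UMIs scaled to the same total in every sum of cells, 10000 CPM being 1% of the UMIs). Of the 11 macrophage markers 5 to 11 were detected, summing to 43.7 to 53.8 CPM. C1qc, a defining macrophage gene, was at 0 in 3 of the libraries. Hepatocyte markers summed to 1333 and 1353 CPM under the sham label and to 226 and 169.8 CPM under the BDL label, and mesenchymal markers to 105 and 105 against 17.3 and 31.5 CPM. The part of these lists in the results on BEC-like cells was not tested.

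Spp1, the ligand, made up 0.455% to 0.542% of all UMIs of BEC-like cells and was not called changed. In the summed cells it was at 5422 and 5158 CPM in sham, and at 4548 and 5029.7 CPM in BDL. Both BDL libraries were below both sham libraries, and the nearest values of the groups, 5158 and 5029.7, lay closer together than the BDL libraries did. The log2 fold change was -0.13 (SE 0.13, n = 2 per group) with an adjusted p of 0.522 in edgeR's quasi-likelihood test over 15992 genes. The 95% interval ran from -0.45 to 0.20, which leaves room for a level between 0.733 and 1.15 times that of the sham libraries. Between the 2 libraries whose labels match their cell tables the difference was -0.15.

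Cd44, the receptor, rose in the summed BEC-like cells. Cells of the labels mostly lay in different clusters: 4 of the 13 BEC-like clusters, each over 90% sham, held 5119 sham and 68 BDL cells, and 8, each over 90% BDL, held 99 and 5730. The Cd44 level was 311 and 327 CPM in sham, and 1776 and 2134 CPM in BDL. The groups were far apart, and the library called BDL in its cell table but labelled sham was at the level of the other sham library. The log2 fold change was 2.63 (SE 0.16, n = 2 per group), a 6.18-fold rise (95% interval 4.78 to 8.01) with an adjusted p of 0.000392 in edgeR's quasi-likelihood test. In that comparison 26.9% of all genes tested were called and 14.1% were called higher. Without sham replicate 1 or 2, 9.10% and 9.14% of genes were called, and Cd44 was among them in both fits. Between the 2 libraries whose labels match their cell tables the difference was 2.61. BEC-like cells thus held 5.74 and 6.35 Cd44 UMIs per 100 Spp1 UMIs in sham, against 39.0 and 42.4 in BDL.

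Levels were also compared between parts of each library. Over the 8 sublibraries into which each library was split, Cd44 ranged from 263 to 359 CPM in sham replicate 1, from 290.4 to 375 in sham replicate 2, from 1645 to 1916 in BDL replicate 1 and from 1919 to 2215 in BDL replicate 2. The ranges of the groups were separate, but sublibraries are parts of the same libraries and do not replicate the label. For Spp1 the ranges overlapped, at 4916 to 5868 and 4544 to 5641 CPM against 4191 to 4933 and 4656 to 5587 CPM. Cd44 is also a leukocyte gene, and the part of immune RNA in its level was not tested. In the BEC-like cells that had no UMI of 6 immune marker lists the log2 fold change of Cd44 was 2.64. In BEC-like cells with no UMI of the cell cycle genes Mki67 and Top2a it was 2.68. Cells that did have such a UMI were at 353 and 341 against 1690.5 and 1988 CPM of Cd44, and at 4743 and 4664 against 4287 and 4900.1 CPM of Spp1.

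Per cell, Spp1 was nearly universal and moderately spread under both labels. A BEC-like cell held a median of 52.8 and 50.02 Spp1 UMIs per 10000 of its UMIs in sham, against 42.0 and 46.3 in BDL. The coefficient of variation over cells (CV, SD divided by mean) was 0.670 and 0.594 against 0.585 and 0.611. The cell at the 90th percentile held 6.07 and 5.25 times the Spp1 of the cell at the 10th percentile in sham, against 5.33 and 5.61 times in BDL. Cells without any Spp1 UMI were 22 and 17 against 4 and 6.

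Cd44 was detected in a minority of BEC-like cells under the sham label and in nearly all under the BDL label. No Cd44 UMI was found in 67.1% and 70.6% of sham cells, against 4.36% and 1.54% of BDL cells. The median cell had 0 Cd44 UMIs in either sham library, against 14.7 and 19.1 per 10000 UMIs in BDL. The cells above the 90th percentile of Cd44 UMIs, counted without scaling for depth, held 67.8% and 71.2% of its UMIs in sham, but 29.5% and 27.6% in BDL. For Spp1 that share was 26.6% and 27.8% against 24.97% and 24.9%. The CV of Cd44 was 2.23 and 2.39 against 0.741 and 0.619.

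**Figure D1:**
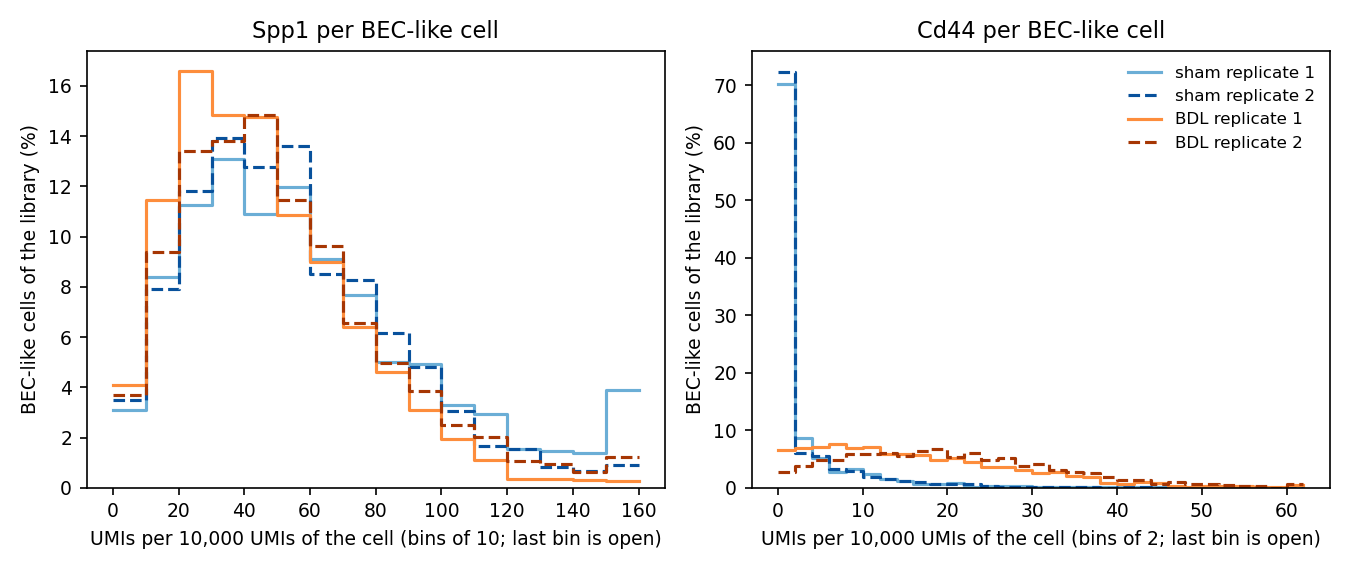
Share of BEC-like cells (y axis, % of the library's BEC-like cells) by their Spp1 (left) or Cd44 (right) UMIs per 10000 UMIs of the cell (x axis), one line per library. The Spp1 curves of the 4 libraries overlap broadly, with medians of 52.8 and 50.02 in sham and 42.0 and 46.3 in BDL, while for Cd44 most cells of both sham libraries fall in the lowest bin and the BDL cells spread widely, with 95th percentiles of 40.04 and 43.7 per 10000.

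Since BDL cells held more UMIs, shares were also computed with each cell thinned to 1000 UMIs, which left out 85 and 108 shallower BEC-like cells in sham and 0 in BDL. At that depth Cd44 was seen in 18.1% and 17.3% of sham cells and in 70.4% and 78.8% of BDL cells, a mean difference of 56.9 percentage points. The exact two-sided permutation test gave p = 0.33, the smallest that 2 libraries against 2 allow. Endothelial-like cells, given for comparison, had a Cd44 UMI in 5.11% and 5.003% against 7.66% and 10.2% at the same thinning, which left out 16, 64, 1 and 0 of them. Their unthinned median depths were 1208.5 and 955 against 1734 and 2987 UMIs beside 3297 and 2758.5 against 7128 and 7873 in BEC-like cells. The variance beyond counting noise, as a squared CV, was 3.98 ± 0.376 in sham and 0.387 ± 0.104 in BDL for Cd44 (SD, n = 2 per group; exact permutation p = 0.33). For Spp1 it was 0.311 ± 0.0533 and 0.325 ± 0.0254, and the groups overlapped (n = 2 per group; exact permutation p = 1). The share of cells with a Spp1 UMI at that depth was 96.1% in both sham libraries, against 94.1% and 94.8% in BDL, beside 16.1% and 36.0% against 20.2% and 17.5% in endothelial-like cells.

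Cd44 of sham cells differed widely between subclusters of BECs. BEC-like cells were clustered again, leaving out Spp1, Cd44 and 6503 genes with an unadjusted p under 0.05 between the labels, which gave 6 subclusters. Of these, 5 had at least 30 cells in every library. Levels between subclusters are a description only, as the cells were grouped by their expression. In sham replicate 1 Cd44 ranged from 61.3 CPM to 938 CPM, 15.3-fold, and in sham replicate 2 from 91.4 to 854 CPM, 9.35-fold. In the BDL libraries the range was 2.67-fold and 2.33-fold, from 833 to 2222 and from 1011 to 2358 CPM. Spp1 varied 1.21-fold to 1.40-fold over the same subclusters in the 4 libraries.

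Sham Cd44 was highest in subcluster 3, led by the mucosal defence gene Dmbt1 with Anxa1 and Tmc5, at 938 and 854 CPM. Those cells were 14.5% and 23.4% of sham BEC-like cells and held 41.5% and 65.0% of their Cd44 UMIs. Subcluster 2, led by the nitric oxide synthase gene Nos2 with Rasal1 and Tnfsf10, was at 590.3 and 595 CPM. Leading genes were taken from cells of all libraries together, and subcluster 2 had 283 and 142 sham beside 554 and 1499 BDL cells. Whether the leading genes of a subcluster also mark its sham cells was not tested. Subcluster 1, led by Ankrd1, Ccn1 and Ccn2, genes known as targets of the YAP coactivator, was at 240.3 and 149 CPM. The largest sham subcluster, 4, led by the immediate early genes Fos and Jun with Txnip, was at 105 and 95.8 CPM, and it held 38.3% and 52.0% of the sham cells but 10.1% and 13.1% of their Cd44 UMIs. Of the BDL cells it held 13.2% and 9.05%, while subcluster 2 held 10.8% and 5.47% of sham and 28.1% and 39.1% of BDL cells. The hepatocyte genes Alb and Ahsg were also among the 10 leading genes of subcluster 4. No subcluster had a biliary marker among its 10 leading genes, and all 11 biliary markers were detected in subcluster 4 in each library. Subcluster 5, led by the dynein gene Dnah12 with Pde4c, had the lowest level, 61.3 and 91.4 CPM. In the BDL libraries subclusters 1, 2 and 3 were at 1817 to 2358 CPM and subclusters 4 and 5 at 833 to 1174 CPM.

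Cd44 was called higher within each of the 5 subclusters, where 12.2%, 8.94%, 7.12%, 10.7% and 7.15% of genes were called higher in subclusters 1 to 5. The fold change was 9.45 in subcluster 1 (log2 3.24, SE 0.21), 3.74 in subcluster 2 (1.90, SE 0.18), 2.55 in subcluster 3 (1.35, SE 0.19), 8.65 in subcluster 4 (3.11, SE 0.15) and 13.03 in subcluster 5 (3.70, SE 0.27). The largest adjusted p of the 5 was 0.000854 in edgeR's quasi-likelihood test, n = 2 per group, and 25.8%, 18.9%, 13.1%, 22.3% and 14.6% of the genes tested were called in either direction in the same fits. The effect of the label differed between subclusters by edgeR's test of the interaction with the library as a block (F = 55.8, adjusted p = 2.56e-13), which called 13.5% of 13470 genes. Subclusters with more Cd44 in the sham libraries had the smaller folds, 2.55 and 3.74, and those with less had 8.65 to 13.03. Each fold is taken against that same sham level, so part of this relation is built in. With every subcluster given the same weight in each library, an alternative added after seeing the data, the log2 fold change over BEC-like cells was 2.21 in place of 2.63.

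**Figure D2:**
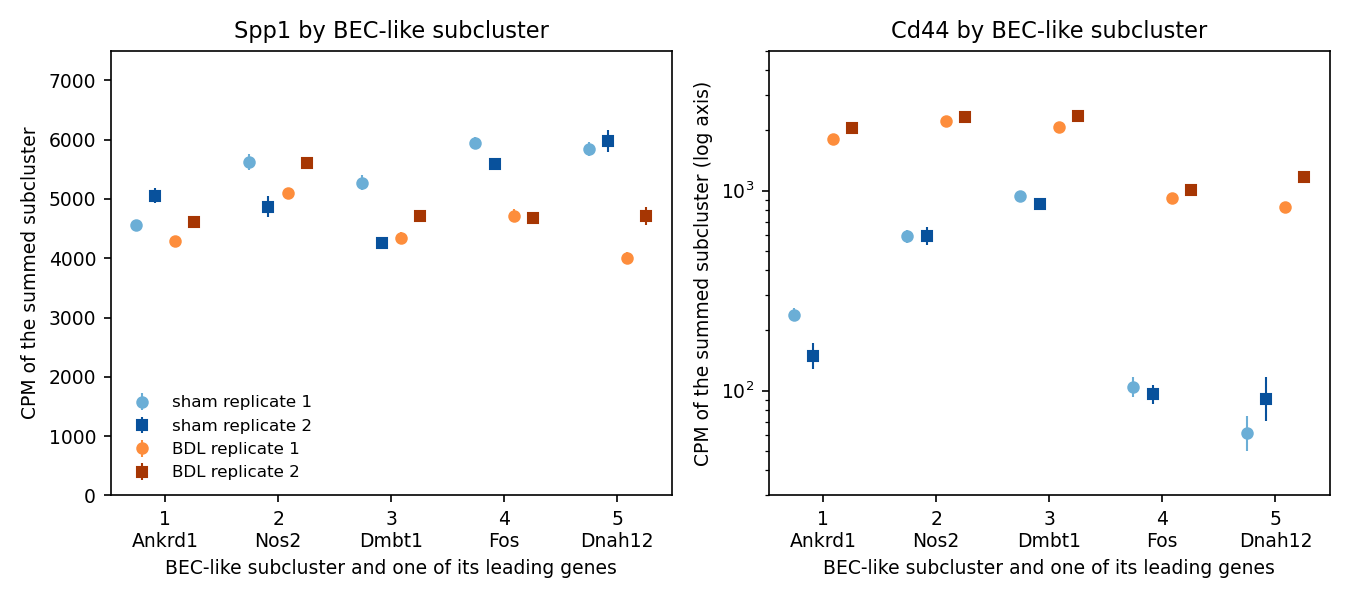
Level of Spp1 (left, linear axis from 0) and Cd44 (right, log axis) in CPM of the summed cells of 5 BEC-like subclusters (x axis, with one leading gene of each), one point per library with exact Poisson 95% intervals, which cover counting error only. Cd44 of the sham libraries runs from 61.3 to 938 CPM while the BDL libraries lie between 833 and 2358 CPM, and Spp1 stays between 4007 and 5976 CPM.

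Spp1 passed the threshold, narrowly, in 1 of the 5 subclusters, where it fell. In that subcluster, 4, it was at 5949 and 5588 CPM in sham and at 4717 and 4681 CPM in BDL, with no overlap. The log2 fold change was -0.45 (SE 0.16, adjusted p = 0.0482 in edgeR's quasi-likelihood test, n = 2 per group), where 11.6% of genes were called lower, and the call was lost without sham replicate 2 (-0.40, adjusted p = 0.0695), without BDL replicate 1 (-0.47, adjusted p = 0.103) and without BDL replicate 2 (-0.41, adjusted p = 0.225). The 10 hepatocyte markers summed there to 1761 and 1789 CPM in sham, against 303 and 226 CPM in BDL, and the 11 biliary markers to 5800.3 and 5267 against 5705 and 5484 CPM. The hepatocyte list was lower in both BDL libraries in each of the 5 subclusters, at 451 to 1837 against 110.1 to 303 CPM, and its part in the Spp1 values was not tested. In subcluster 5 Spp1 was at 5840.3 and 5976 against 4007 and 4717 CPM (log2 -0.49, SE 0.20, adjusted p = 0.128), and without sham replicate 1 this became -0.59 with an adjusted p of 0.0294. In subclusters 1, 2 and 3 the changes were -0.17, -0.01 and -0.03. The interaction test gave F = 5.54 and an adjusted p of 0.0126 for Spp1 in edgeR, with adjusted p-values of 0.0924 without BDL replicate 1 and 0.109 without BDL replicate 2.

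A sixth subcluster of 13 cells stood apart for lack of Spp1. Its leading genes included Rgs13 and St18, and 9 of its cells came from BDL replicate 2. Pooled over the libraries it held 15 Spp1 UMIs, 199 CPM (exact Poisson 95% interval 112 to 329), and 105 Cd44 UMIs, 1396 CPM (1142 to 1690). Every Cd44 UMI and 14 of the Spp1 UMIs came from the 9 cells of BDL replicate 2, so nothing is compared between labels here.

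In the finer clustering of all cells, which kept the genes that differed between the labels, Cd44 also varied between clusters. These clusters were not matched to the subclusters. A cluster led by Car4, a carbonic anhydrase gene, with Sgcd and Tmeff2 was at 897 and 827 CPM of Cd44 in the sham libraries, while 2 others, led by Aldh3b3 and by Ddit4l, were at 54.5 to 90.6 CPM. Among clusters made mostly of BDL cells, the one led by Nos2, Csf3 and Cd83 had the highest Cd44, 2748 and 2914 CPM. The lowest Spp1 of these, 3280.1 and 3973 CPM, was in a cluster led by Dmbt1, Duox2 and Anxa8, whose Cd44 was 2211 and 2484 CPM. Within single libraries, cells below the 25th percentile of Spp1 had the most Cd44 in both sham libraries, 386 CPM against 277 to 287 in the other 3 bins of cells in sham replicate 1 and 576 against 191 to 301 in sham replicate 2. In the BDL libraries the 4 bins lay within 1689 to 1882 and 1999.9 to 2218 CPM. As a description over cells of one library, whose bins also differ in depth, these values carry no test.

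The order of classes differed between the genes. Spp1 in the sham libraries was highest in BEC-like cells, at 5422 and 5158 CPM, and was at 1292 CPM or less in every other class. In the BDL libraries hepatocyte-like cells were above BEC-like cells, and the mesenchymal-like, endothelial-like and macrophage-like classes were at 191 to 1335 CPM. Cd44 was highest in macrophage-like cells in each of the 4 libraries, followed in the BDL libraries by BEC-like, hepatocyte-like and mesenchymal-like cells. In the sham libraries BEC-like cells (311 and 327 CPM) lay between the mesenchymal-like values (414 and 232 CPM), so the order of these neighbours is not resolved, nor is that of hepatocyte-like and mesenchymal-like cells in BDL replicate 2 (1061 and 1045 CPM). Endothelial-like cells had 55.1 to 103 CPM of Cd44 throughout.

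**Figure D3:**
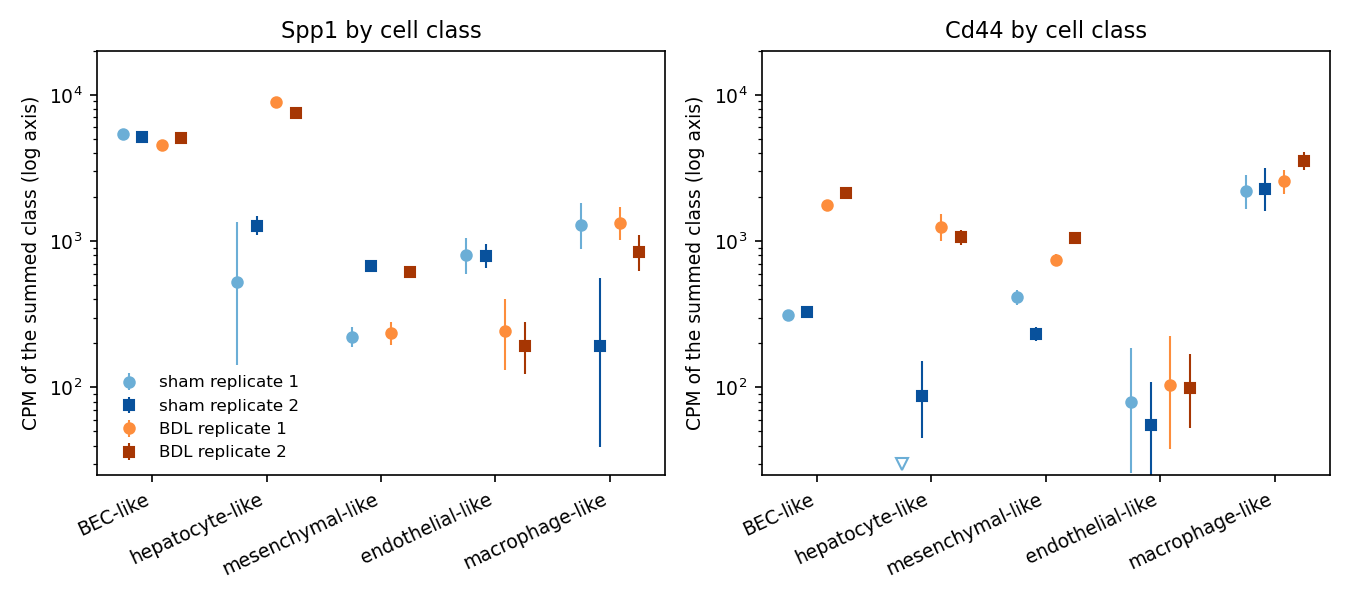
Level of Spp1 (left) and Cd44 (right) in CPM (log axis) of the summed cells of each class, one point per library with exact Poisson 95% intervals, which cover counting error only; the open triangle marks a count of 0 in 2 cells. Hepatocyte-like cells of the BDL libraries lie above BEC-like cells for Spp1, and macrophage-like cells are the highest for Cd44 in each library.

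Hepatocyte-like cells of the BDL libraries had more Spp1 per UMI than the BECs beside them. In sham replicate 2 the 36 cells of this class held 175 Spp1 UMIs, 1274 CPM (exact Poisson 95% interval 1092 to 1478), and 19 of them had none. In BDL replicate 1 the 8 cells held 664 UMIs, 8915 CPM (8250 to 9620), and in BDL replicate 2 the 35 cells held 1886 UMIs, 7493 CPM (7159 to 7839). Each of these 8 and 35 cells had Spp1, from 14.7 to 162 and from 13.3 to 156 UMIs per 10000, with medians of 80.4 and 84.4 against 42.0 and 46.3 in BEC-like cells. Relative to BEC-like cells of the same library, Spp1 was at 24.7% in sham replicate 2 and at 196% and 149% in the BDL libraries. The 11 biliary markers, which do not include Spp1, were at 24.6%, 42.6% and 33.6% of their BEC-like level in the same cells. Hepatocyte markers summed to 14825 CPM in sham replicate 2 and to 9465 and 9102 CPM in the BDL libraries.

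Cd44 in these cells was at 87.4 CPM in sham replicate 2 and at 1249 and 1061 CPM in the BDL libraries, 70.3% and 49.7% of the BEC-like level. Per 100 Spp1 UMIs they held 14.0 and 14.2 Cd44 UMIs in the BDL libraries, where BEC-like cells held 39.0 and 42.4. Sham replicate 1 had 2 such cells with 4 Spp1 UMIs and 0 Cd44 UMIs, which allows up to 393 CPM. With so few cells the class was not tested, and the part of biliary RNA in these values was not tested either.

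Cd44 was called higher in mesenchymal-like cells. It was at 414 and 232 CPM in 188 and 416 sham cells and at 744 and 1045 CPM in 71 and 132 BDL cells, without overlap. The fold change was 2.74 (log2 1.45, SE 0.29, n = 2 per group; adjusted p = 0.0213 in edgeR's quasi-likelihood test), where 6.45% of 8801 genes were called, 2.53% higher and 3.92% lower. Without sham replicate 2 it was 1.12 on the log2 scale with an adjusted p of 0.0729, and between the 2 libraries whose labels match it was 0.90. The class held a cluster led by Mgp, Fbn2 and Col1a1 and another led by Colec10, Fcna and Ntm. In the first, Cd44 was at 724 and 414 against 907 and 1141 CPM, and in the second at 83.1 and 137 against 339 and 397 CPM. The BDL libraries had 44 and 110 of their cells in the first cluster and the sham libraries 81 and 101, and the part of this mix in the class value was not tested.

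Spp1 of mesenchymal-like cells was at 222 and 675 against 234 and 613 CPM, with overlapping groups (log2 fold change -0.15, SE 0.52, adjusted p = 0.902 in edgeR, n = 2 per group). The 95% interval ran from 0.401-fold to 2.02-fold, and without sham replicate 2 the log2 fold change was 0.95 (adjusted p = 0.269). As a share of the BEC-like level of each library it was 4.09%, 13.1%, 5.14% and 12.2%, beside 4.86%, 13.6%, 3.66% and 7.92% for the biliary markers. Whether it was transcribed in these cells or came as free RNA was not tested. The effect of the label on Cd44 was larger in BEC-like than in mesenchymal-like cells by 1.16 on the log2 scale (SE 0.30, adjusted p = 0.0182 in edgeR's interaction test with the library as a block, where 6.03% of 15316 genes were called). Without sham replicate 1 that difference was 0.63 with an adjusted p of 0.558. For Spp1 it was -0.05 (SE 0.42, adjusted p = 0.976 in the same edgeR test).

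Endothelial-like cells showed a lower Spp1 count under the BDL label, at 800.0 and 792 against 241 and 191 CPM, from 50, 115, 14 and 25 UMIs. The log2 fold change was -2.11 (SE 0.37, n = 2 per group; adjusted p = 0.0251 in edgeR, 1.52% of 2037 genes called, 0.884% lower). The call was lost without BDL replicate 1 (adjusted p = 0.0831), without the cells of the top 5% of doublet scores (-1.4996, adjusted p = 0.0693) and with genes of at least 10 CPM only (adjusted p = 0.127). As a share of the BEC-like level Spp1 was at 14.8% and 15.3% against 5.303% and 3.79%, and the biliary markers at 9.20% and 15.1% against 11.4% and 6.03%. Cd44 per 100 Spp1 UMIs was 10 and 6.96 against 42.9 and 52.0, beside 5.74 and 6.35 against 39.0 and 42.4 in BEC-like cells. Whether these low counts came from endothelial cells or from free RNA was not tested. The class held a cluster led by Selp, Ptprb and Cyyr1 with 37 and 119 sham and 16 and 21 BDL cells. Another, led by Ccl21a, Mmrn1 and Lyve1, held 3 and 3 sham and 3 and 13 BDL cells. The part of this mix in the class values was not tested. Cd44 itself, with 5, 8, 6 and 13 UMIs, did not pass the filter on low counts, and with no filter its log2 fold change was 0.47 (SE 0.69, adjusted p = 0.828 in edgeR). At clustering resolution 2 it passed the filter, and the log2 fold change was -0.48 (SE 0.55, adjusted p = 0.739 in edgeR).

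The cluster called macrophage-like, 6 to 21 cells per library, also held B cell markers (587 CPM over all its cells, beside 3258 CPM of macrophage markers). Its 6 cells in sham replicate 1 had 626 CPM of macrophage markers, 5 of 11 detected, beside 1644 CPM of biliary and 704 CPM of endothelial markers. The part of other cells in its values was not tested. These cells had 2192 and 2287 CPM of Cd44 under the sham label and 2559 and 3532 CPM under the BDL label. The exact Poisson intervals of the sham libraries (1656 to 2846 and 1602 to 3166) overlapped that of BDL replicate 1 (2113 to 3072). The class was too small to test. Its Spp1 was uneven, with 33, 3, 60 and 52 UMIs, and in sham replicate 1 all 33 lay in 1 cell.

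Around the pair, 45 genes of the osteopontin and CD44 pathways were listed. In BEC-like cells 36 of them passed the filter on low counts, and of those 11 were called higher, 5 lower and 20 neither, beside 14.1% and 12.8% of all genes. With either sham library left out, a smaller share of the pathway genes and of all genes was called. The median log2 fold change of the pathway genes was then 0.37 without sham replicate 1 and 0.23 without sham replicate 2. The median log2 fold change of the 36 was 0.29 against -0.03 for all genes tested. Among relatives of osteopontin, the mineral-matrix proteins of the same gene family, Dmp1 had 1 UMI and Ibsp, Dspp and Mepe had 0 UMIs in all BEC-like cells, which allows up to 0.0462 CPM. No other member of that family was thus detected at a level near that of Spp1.

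Integrins that bind osteopontin changed in both directions. Of 8 tested, Itgb6, Itgav and Itgb1 were called higher and Itga9 lower, where 14.1% of all genes were called higher and 12.8% lower. Itgb6, the beta chain of the epithelial integrin alpha v beta 6, was at 171 and 125 CPM in sham, against 638 and 853 CPM in BDL (log2 fold change 2.36, SE 0.18, adjusted p = 0.000594 in edgeR). Itgav, the alpha v chain shared by several osteopontin receptors, was at 1205 and 953 against 3183 and 2925 CPM (1.53, SE 0.14, adjusted p = 0.000914). Both were separated between the labels without overlap, though full separation of 2 libraries against 2 reaches no exact permutation p below 0.33. Itga9, the chain of an integrin that binds osteopontin after cleavage, was at 119 and 86.0 against 41.0 and 32.6 CPM (-1.46, SE 0.17, adjusted p = 0.00211). Itgb3, the partner of alpha v in the vitronectin receptor, had 61 UMIs in all BEC-like cells.

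Of the 5 enzymes tested that modify or cut osteopontin, 1 was called higher and 1 lower, beside 14.1% and 12.8% of all genes. Mmp7, matrilysin, was at 22.6 and 6.53 against 151 and 265 CPM (log2 fold change 3.86, SE 0.50, adjusted p = 0.00303 in edgeR). Fam20c, the kinase that phosphorylates secreted proteins such as osteopontin, was at 67.0 and 58.6 against 19.3 and 18.1 CPM (-1.73, SE 0.12, adjusted p = 0.000452). Tgm2, a transglutaminase that crosslinks it, was at 91.7 and 100.4 against 107 and 141 CPM and was not called (0.39, adjusted p = 0.139). Thrombin's gene F2 (1.27 to 2.36 CPM) and Mmp9 (0.435 to 2.15 CPM) were not called, and Mmp3 and Mmp12 were not tested in these cells.

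Of the 6 genes of CD44 partners, 2 were called higher, 1 lower and 3 neither, beside 14.1% and 12.8% of all genes. Msn, moesin, was at 47.7 and 30.6 against 212 and 279.7 CPM (log2 fold change 2.68, SE 0.21, adjusted p = 0.000594 in edgeR). Rdx, radixin, was lower, at 267 and 235 against 184 and 144 CPM (-0.60, SE 0.14, adjusted p = 0.0245). Ezr, ezrin, was at 409 and 505 against 424 and 461 CPM, with overlapping groups (-0.04, SE 0.17, adjusted p = 0.882). Cd74, the invariant chain, which pairs with CD44 in a cytokine receptor, was higher at 57.0 and 39.0 against 136 and 119.8 CPM (1.44, SE 0.16, adjusted p = 0.00179).

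Of the 6 genes of hyaluronan synthesis and breakdown tested, 1 was called higher and 2 lower, of the 5 hyaluronan-binding genes 2 higher and 0 lower, and of the 4 CD44 proteases 2 higher and 0 lower, beside 14.1% and 12.8% of all genes in edgeR. Cemip2, a hyaluronan-degrading surface protein, was at 123 and 137 against 260.1 and 267 CPM (log2 fold change 1.03, SE 0.13, adjusted p = 0.00315 in edgeR), while Cemip (-1.21) and Hyal1 (-0.61) were called lower near the threshold, with adjusted p-values of 0.0480 and 0.0481. The synthase genes Has1 and Has3 had 51 and 191 UMIs in all BEC-like cells and were not called, and Has2 had 3 UMIs. Of the hyaluronan-binding genes, Hmmr, which is also a mitosis gene, rose from 2.15 and 1.90 to 7.65 and 4.79 CPM (1.62, SE 0.34, adjusted p = 0.0169), and Vcan rose by 1.15 (adjusted p = 0.0142). Cells with a UMI of Mki67 or Top2a, at the unequal depths of the libraries, numbered 153 of 2625 and 114 of 2596 in sham and 502 of 1972 and 982 of 3836 in BDL, and their part in the Hmmr value was not tested. The sheddase genes Mmp14 (0.64, adjusted p = 0.0117) and Adam10 (0.66, adjusted p = 0.0169) rose, and Adam17 was not called. Esrp1 and Esrp2, which set epithelial splicing of CD44, were not called (0.31 and -0.28). The counts are per gene, so splice forms of CD44 were not analysed here.

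**Figure D4:**
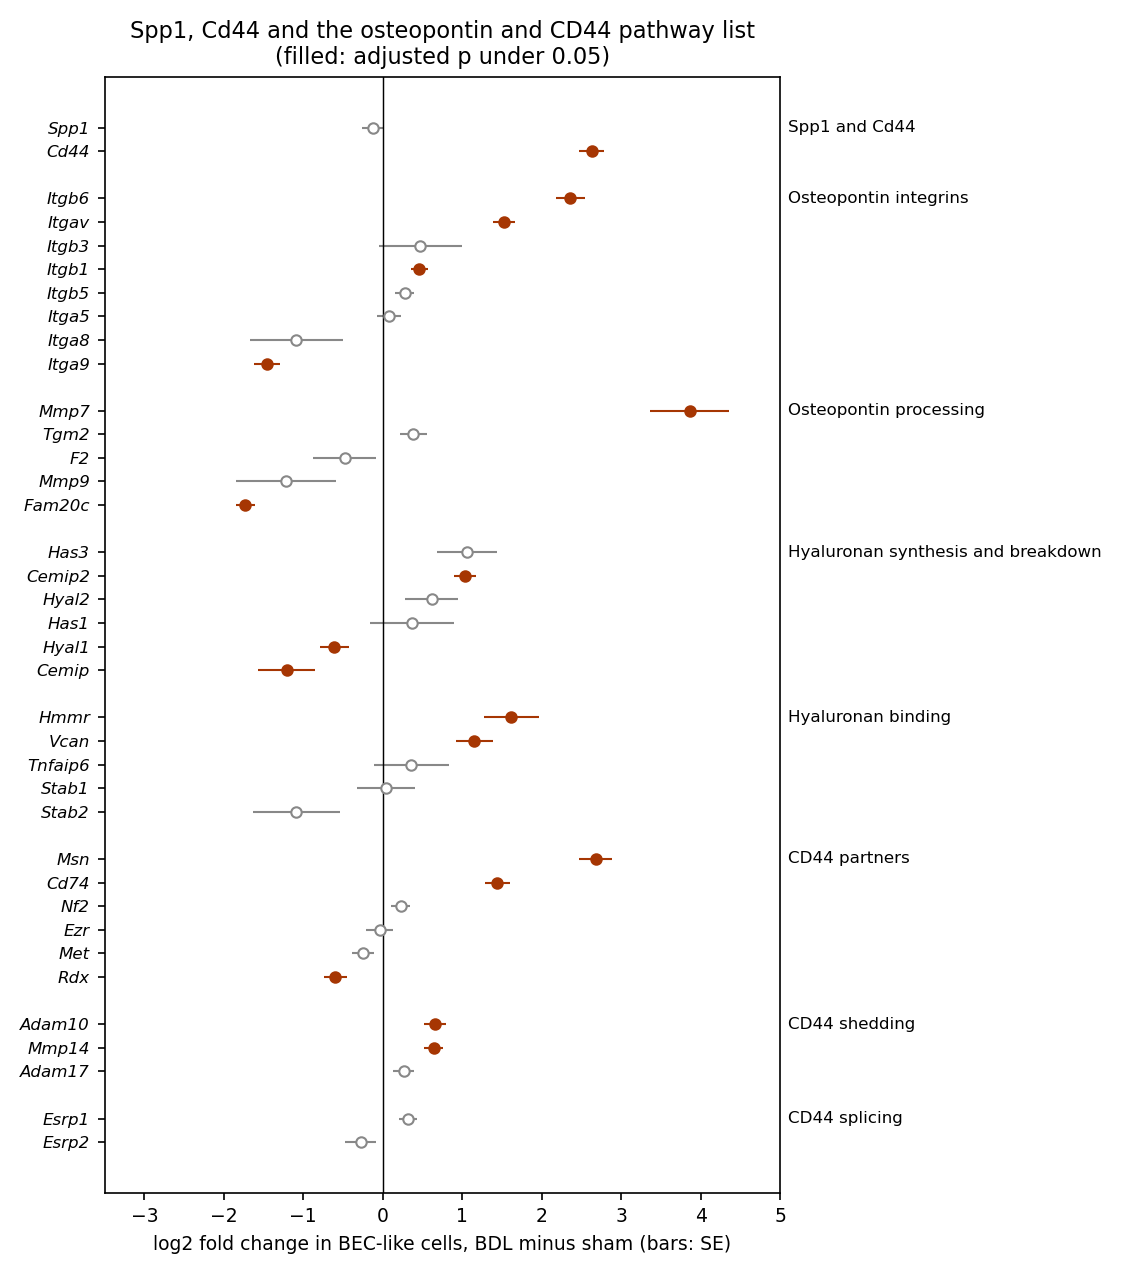
Log2 fold change in BEC-like cells (x axis, BDL minus sham, with SE) of Spp1, Cd44 and the pathway genes tested, except 1 that is not reported here, grouped by role, filled where the edgeR adjusted p was under 0.05. Cd44 at 2.63 lies beside Msn at 2.68 and Itgb6 at 2.36, and Spp1 lies at -0.13.

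In mesenchymal-like cells 27 pathway genes were tested, 6 were called higher and 0 lower by edgeR, beside 2.53% and 3.92% of all genes. Fewer pathway genes and fewer of all genes were called without sham replicate 1 or BDL replicate 2. More of both were called without BDL replicate 1. The median log2 fold change of the pathway genes was 0.49, 0.32 and 0.50 in these fits, beside 0.40 in the main fit. The largest change of the 6 was that of Mmp3 (log2 fold change 3.84, adjusted p = 0.00696), a stromelysin that cuts osteopontin and that had 4 UMIs in all BEC-like cells. Cemip, lower in BEC-like cells, was higher here (2.37, adjusted p = 0.0230), and the difference between the classes was not tested for it. Vcan (1.84), Mmp14 (1.40), Itga5 (1.21) and Cemip2 (1.10) were the others. The endothelial-like class held a cluster led by Ccl21a, Mmrn1 and Lyve1, with 3 and 3 sham and 3 and 13 BDL cells. Its other cluster held 37 and 119 sham and 16 and 21 BDL cells. The part of this mix in the Lyve1 value was not tested. In endothelial-like cells Lyve1, the hyaluronan receptor of lymphatic and sinusoidal endothelium, was the 1 gene called of 13 pathway genes tested (1.91, adjusted p = 0.0451 in edgeR), beside 1.52% of all genes. That call was lost with DESeq2, with RLE normalization, with genes of at least 10 CPM only, without sham replicate 1 and without BDL replicate 1.

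Genes with the most similar pattern were taken by Pearson's r of log levels, as a description without a test. Over 19 sums of class and library and 7027 genes, Spp1 was most like Krt8 (r = 0.96), Clu (0.96), Dsp (0.95), Krt18 (0.94) and Usp43 (0.93). Cd44 was most like Tnfrsf1b (0.91), Runx1 (0.90), Tank (0.90), Vps16 (0.87) and Smox (0.87), and r between Spp1 and Cd44 was 0.28. Over 20 sums of 5 BEC-like subclusters and library, centred per library, the nearest genes to Cd44 were the adhesion molecule gene Vcam1 (0.99), Cxcl2 (0.98), Ptk2b (0.98), Tspan8 (0.98) and Stx6 (0.97). Those nearest to Spp1 were Trim24 (0.87), Prox1 (0.84), Stx8 (0.79), Stag2 (0.77) and Kdm2b (0.76), and r between Spp1 and Cd44 was -0.40. The sums share libraries and depth, and the subclusters were made from these cells.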

How the data were processed

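The deposited matrices hold UMI counts per cell and gene from a split-pool assay of fixed cells (Evercode Whole Transcriptome, Parse Biosciences) primed with random hexamers and oligo(dT), per the labels' protocols. The build is GRCm39 per the submitters' processing notes, and the aligner and cell threshold are not given in the sources used here. The counts are as the authors deposited them, with no normalization, and each cell's sum equals its transcript count in the deposited cell table. No barcode was shared between libraries.

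Of 12211 cells, 7 under 500 UMIs and 11 over 20% mitochondrial UMIs were left out. Scrublet called 12 doublets (0.0984%), and those were removed. How many doublets it missed was not tested, and the alternatives without the top 5% of doublet scores rest on the same scores. The remaining 12181 cells were clustered (scanpy 1.11.5, 2000 variable genes, 30 components, 20 neighbours, Leiden resolution 1) into 19 clusters. Spp1, Cd44, the 45 pathway genes and 15 mitochondrial genes were left out of the variable genes. A non-biliary class needed at least 3 markers and 50% of its list, each in 5% of cells and over 2-fold, a rule set after the clusters were seen. Clusters with 3 or more biliary markers and no such class were called BEC-like.

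Counts were summed per library and class and tested with edgeR 4.0.16 (R 4.3.3): TMM, filterByExpr, quasi-likelihood F test, two-sided, Benjamini-Hochberg adjustment over all genes tested, threshold 0.05, n = 2 per group. SEs come from the F statistic. CPM are not scaled by TMM. The fit and the thinning formula were tested on simulated data. DESeq2 1.42.0, other filters, cell sets, sublibraries and left-out libraries were alternatives. Intervals are 95% (exact Poisson) and a count of 0 is given as up to 3 counts. Replicate numbers follow sample order. The genes, the lists and the tests were chosen with earlier results of these data known. Spp1 and Cd44 were named in every result, and up to 3 genes of each pathway sublist with the smallest adjusted p were given with values. Ezr, F2, Mmp9, Has1, Has3 and Itgb3 were added after their values were seen. The values of 1 pathway gene, which stays in the counts over the list, are not reported here. Without strand information, reads of overlapping genes cannot be told apart.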

Additional observations from a re-analysis of the deposited data

Results flagged for a closer look

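The change of Cd44 differed between BEC-like and mesenchymal-like cells. The difference of the log2 fold changes was 1.16 in edgeR's interaction test with the library as a block (SE 0.30, adjusted p = 0.0182, 2 libraries per group), with Cd44 higher in both BDL libraries in each class. Without sham replicate 1 it was 0.63 (adjusted p = 0.558), and over the other left-out libraries up to 1.57.

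Both genes differed in their change between the 5 BEC-like subclusters. For Cd44 the interaction test gave F = 55.8 (adjusted p = 2.56e-13 in edgeR), and Cd44 was higher in both BDL libraries in each of the 5. For Spp1 it gave F = 5.54 (adjusted p = 0.0126 in edgeR), with lower values in both BDL libraries in subclusters 4 and 5, and with adjusted p-values from 0.000931 to 0.109 when 1 library was left out.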

How the results depend on the processing

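Since replicates carry no number in the labels, pairing has no basis. No paired analysis was possible because no number links a sham to a BDL sample. Of 229 alternative values, 173 kept their direction and their side of the threshold or, where untested, stayed within the limits set for a change; their sizes could still move. Cd44 in BEC-like cells stayed between 2.21 and 2.78 (log2) and was called in every alternative with a test. Spp1 there was 0.0079 with no filter on low counts, where 3717 calls were higher and 2209 lower, against 2256 and 2039 with the filter. Genes called in BEC-like cells numbered 1578 to 6334 with 1 library left out (main 4295) and 589, 2365, 1846, 2138, 2026, 1980, 2227 and 1840 in sublibraries 1 to 8 alone. Pathway genes called were 8 to 19 with 1 library left out (main 16), 7 in sublibrary 1 and 10 in each of sublibraries 2, 3 and 8.

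In mesenchymal-like cells Spp1 was -0.97 to 0.95 with 1 library left out (0.35 without BDL replicate 1), 0.51 without the top 5% of doublet scores and 0.13 between libraries whose tables match the labels, while Cd44 was 1.12 to 1.87 and 0.90. Genes called were 160 to 1285, 369 with DESeq2 and 1067 with no filter. In endothelial-like cells Spp1 was -2.32 to -1.87, -2.09 with genes of at least 10 CPM, -1.63 between matching libraries and -1.4996 without top doublet scores. Genes called were 1 to 48, 11 with DESeq2, 52 with no filter, 47 with cells of at least 1000 UMIs, and 0 in edgeR with genes of at least 10 CPM, where 910 had an unadjusted p under 0.05. The difference between BEC-like and mesenchymal-like cells was -0.97 to 0.67 for Spp1 (0.59 without BDL replicate 2) and 0.63 to 1.57 for Cd44, with 502 to 1044 genes called.

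The Spp1 share of cells differed by 0.567 points unthinned (main -1.66), and its excess squared CV by -0.115 unthinned and by -0.0245 to 0.0509 with 1 library left out (-0.0048 without BDL replicate 2). Spp1 was called in 20% of subclusters (1 of 5), in 0% at resolution 1 (0 of 7 in edgeR) and with differing genes kept (1 subcluster tested), and in 0% to 40% with 1 library left out. Its F was 3.19 to 8.45 (3.46 without BDL replicate 2). With 1 library left out it was -0.063 to 0.11 in subcluster 2 and -0.10 to 0.045 in subcluster 3, turning positive without sham replicate 1 and without BDL replicate 1 (0.037 and 0.019). The causes were not tested, and 2 libraries per group limit every p.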
